A study of Drosophila melanogaster with 30 samples.

Results

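The Cpr genes of Drosophila melanogaster encode cuticle proteins with a Rebers-Riddiford domain, and they are named by the cytological subdivision in which each lies. All probe sets whose platform annotation gave 1 gene symbol beginning with Cpr and a digit were taken, which gave 67 probe sets for 67 genes, of 15309 probe sets and 13402 genes with a probe set of their own. This rule uses gene symbols and no measured value, but the family was chosen with earlier results of these data known. A further 4 probe sets carried a Cpr symbol together with another gene's symbol and were left out, since their signal cannot be assigned to 1 gene. All 67 gene identifiers were found in a RefSeq gene table with the same symbols.

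Insect cuticle is built from chitin fibres embedded in protein, secreted by epidermal cells at the body surface and by the epithelia of the trachea, foregut and hindgut. The Rebers-Riddiford domain binds chitin, and different members of the family serve the larval, pupal and adult cuticle and its soft and hard regions. After the adult emerges, the cuticle is still thickened by new inner layers and is tanned, a step in which catecholamines cross-link its proteins.

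RNA of adult virgin males from a laboratory stock founded with field-collected flies was measured on 30 arrays, 3 for each of 10 diet histories. Groups are written by the food on which successive generations developed, R for rich and P for poor. The F0 males were R or P, and the F1 males R-R, R-P, P-R or P-P, with the parents' food first. The F2 males were P-R-P, P-R-R, R-R-P or R-R-R, so that all of their parents, the F1 generation, had developed on rich food. The sources used here do not give what the foods contained, how old the males were, how many flies made a sample, or any array batch. No label states whether the 3 samples of a group were separate cultures, and p-values therefore reflect only the spread among these samples, which may be technical. In RNA from many tissues, fewer epidermal cells and less Cpr RNA per cell cannot be told apart.

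Expression values are GCRMA-normalized and were taken as log2 values, so a difference of 1 is a doubling. Their base is not stated, and with natural logarithms each difference would be 1.44 times larger. Array medians were 0.82 to 0.94. Markers of testis and accessory gland were high on all arrays, with list means of 3.99 to 4.43 and 5.74 to 6.15. Ovary transcripts were also present in R-P (replicate 2) and in P-R-R (replicate 2), with means of 3.99 and 3.76 in that order over 15 female and ovary genes against 0.30 to 0.48 on the other 28 arrays. Replicates 1 and 3 of R-R stood apart in the cuticle genes themselves. Results are given with and without them.

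Most of the family was near the floor of the measurement in these adult males. Of the 67 genes, 11 had a mean of at least 1 over the 30 arrays, the level used below to mark a gene as measured above the floor, and 7 of these had a mean of at least 2. The 11 genes were Cpr49Ae, Cpr92F, Cpr65Au, Cpr76Bd, Cpr100A, Cpr97Eb, Cpr62Bb, Cpr97Ea, Cpr62Bc, Cpr49Ab and Cpr51A. The other 56 had means from 0.13 for Cpr78Cc to 0.95 for Cpr92A, and the highest value of any of them on any array was 1.52. The gene just inside the level was Cpr51A with a mean of 1.15, and the one just outside was Cpr92A.

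The 67 genes lay in 32 cytological subdivisions, and genes of 1 subdivision differed in whether they were above the floor. Both genes of subdivision 97E were above it, with no coding gene between them in the RefSeq annotation, and so were Cpr62Bb and Cpr62Bc, neighbours in a row of 3. In the larger groups few genes or none were: 0 of 7 in 47E, 2 of 8 in 49A, 0 of 4 in 64A, 1 of 5 in 65A and 1 of 4 in 76B.

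**Figure D1:**
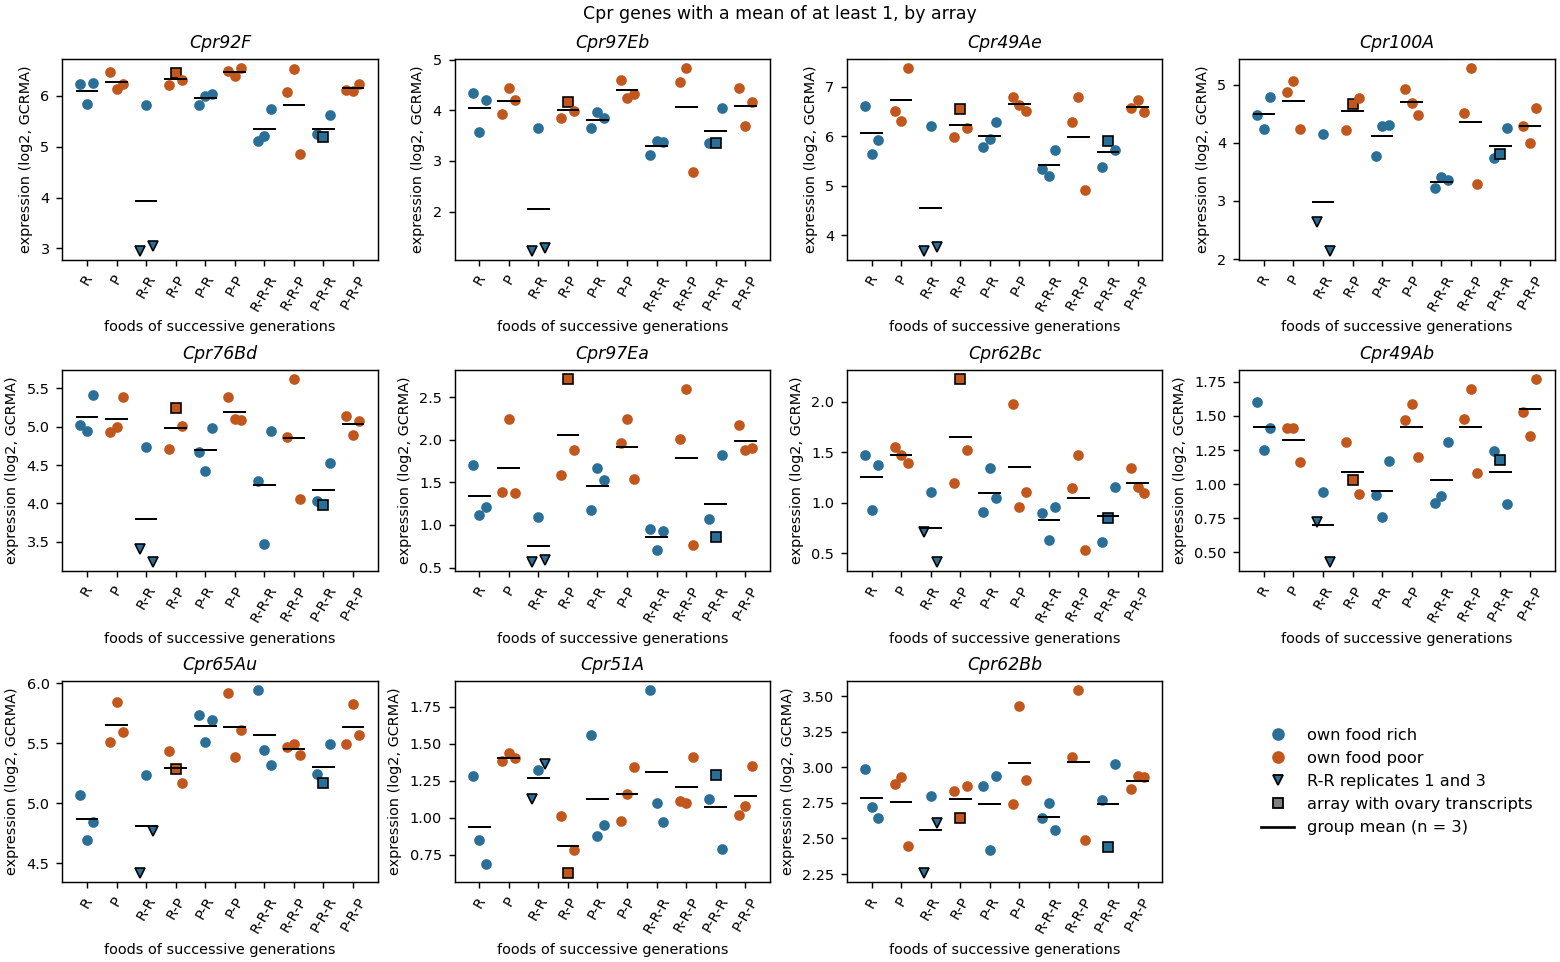
Expression of the 11 Cpr genes with a mean of at least 1 (log2, vertical axis, scaled separately for each gene) by diet history (horizontal axis). Each point is 1 array, orange for males raised on poor food and blue for rich food; triangles are replicates 1 and 3 of R-R, squares are both arrays with ovary transcripts, and black bars are group means. For Cpr92F the triangles stand at 2.96 and 3.04, below all 28 other arrays (4.85 to 6.54).

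The widest departures in the family were low values on 2 arrays of 1 group. In R-R Cpr92F measured 2.96, 5.81 and 3.04 on replicates 1, 2 and 3. On the other 28 arrays, which include that replicate, it lay between 4.85 and 6.54. Cpr97Eb measured 1.23 and 1.28 on the same arrays and 3.64 on replicate 2 of R-R, with 2.79 to 4.83 on all 28 others. So replicates 1 and 3 of R-R fell outside the span of all other arrays for both genes, while replicate 2 stayed inside it.

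Cpr49Ae had 3.69 and 3.77 there, and 4.91 to 7.38 on all 28 others, and Cpr100A had 2.64 and 2.15 there and 3.22 to 5.28 on the others. Replicates 1 and 3 of R-R were the lowest 2 of the 30 arrays in 8 of the 67 Cpr genes, and in 7 of the 11 above the floor, against 0.719% of all 15309 probe sets. Those 7 were Cpr92F, Cpr97Eb, Cpr49Ae, Cpr100A, Cpr76Bd, Cpr97Ea and Cpr49Ab. Cpr51A did not share this, with 1.13 and 1.36 on these arrays and a median of 1.11 on the others. Cpr62Bb, at 2.26 and 2.61, Cpr62Bc, at 0.71 and 0.42, and Cpr65Au, at 4.42 and 4.77, were below their medians on the other arrays of 2.84, 1.16 and 5.48, without being the lowest 2 values of the 30. Both arrays were singled out with earlier results of these data known, as arrays that stood apart in cuticle genes. The counts of genes lowest there therefore describe these arrays and are no test. The share of all probe sets includes those near the floor.

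Other tissue markers moved on the same 2 arrays. Lsp2, which encodes a larval storage protein of the fat body, measured 4.20 and 3.53 against 5.40 to 7.63 elsewhere. The mean over 7 fat body genes was 3.30 and 3.10 against 3.54 to 4.51. Over 13 muscle genes the mean was 5.78 and 6.05 against 6.04 to 6.75. These 2 arrays were the lowest in 2 of the 7 fat body genes, Lsp2 and Fbp2 (1.17 and 1.67, at least 2.28 elsewhere). Fbp1 measured -0.06 and -0.14 against -0.13 to 1.57, and Lsd-1 3.40 and 3.22 against 3.21 to 4.43, near their low ends. The other fat body genes were not low: bmm measured 4.90 and 4.05 against 3.52 to 4.56. Apoltp measured 2.49 and 2.57 against 0.81 to 2.51, and apolpp 6.97 and 6.82 against 6.48 to 7.18. Summed over the 7 fat body genes the level ran from 21.7 to 25.5 in R-R and from 24.75 to 31.5 in the other 9 groups. Both arrays were also the lowest 2 in 3 of the 13 muscle genes, 1 of 12 accessory gland genes and 0 of 17 testis genes. For all probe sets this share was 0.719%. The testis mean was 4.36 and 4.42 against 3.99 to 4.43. The 15 female and ovary genes had a mean of 0.37 on both arrays, within the 0.30 to 0.48 of arrays without ovary transcripts. The part of all these markers in the Cpr values was not tested.

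**Figure D2:**
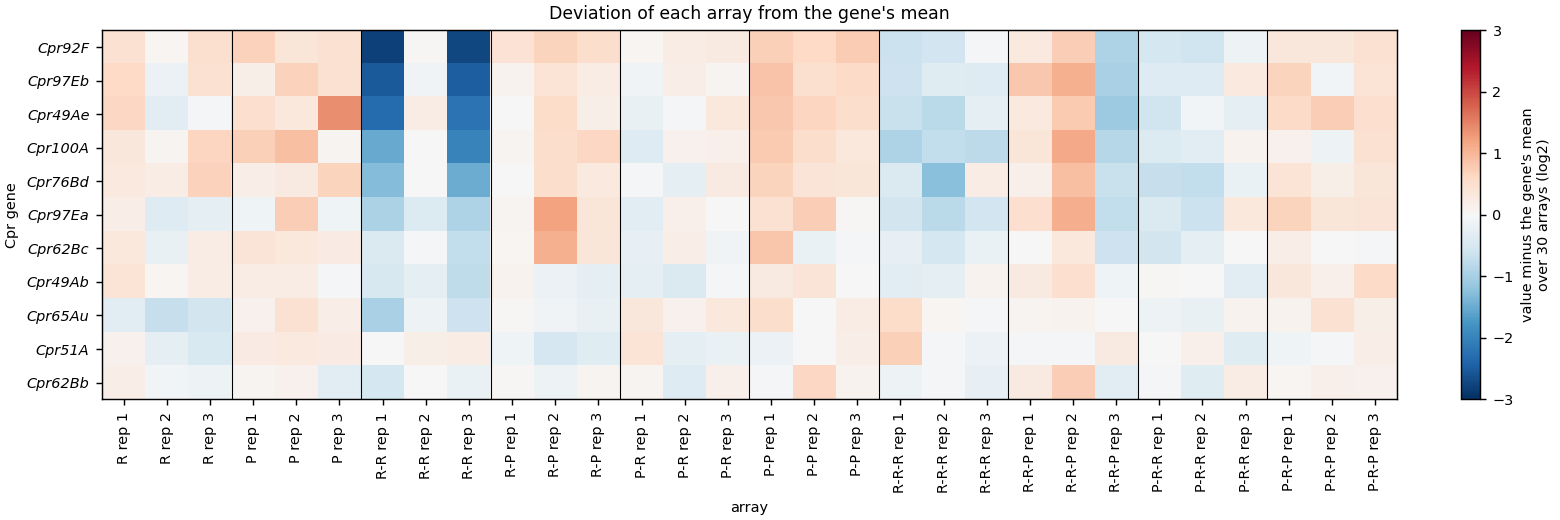
Each cell is the value of 1 array (columns, in groups of 3) minus the mean of that Cpr gene over the 30 arrays (rows), on the log2 scale from blue, below the mean, to red, above it. The darkest blue cells are Cpr92F on replicates 1 and 3 of R-R, at 2.96 and 3.04, while Cpr51A has no such cell on these arrays.

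Arrays other than these 2 also moved up or down together in many Cpr genes. The median deviation of the 11 genes from their means in R-R was -0.96 on replicate 1, -0.92 on replicate 3 and close to 0 on replicate 2. The next lowest was -0.66 on replicate 3 of R-R-P, whose group also held the highest, 0.75 on replicate 2. Cpr97Eb shows this spread in R-R-P with 4.56, 4.83 and 2.79, and Cpr97Ea with 2.01, 2.59 and 0.77. The median deviation was above 0 on 14 of the 15 arrays of poor-raised males and on 6 of the 15 of rich-raised males. Other lists also varied within R-R-P: on replicates 1, 2 and 3 the muscle mean was 6.61, 6.75 and 6.16. The fat body mean was 4.51, 4.24 and 3.68 there. Testis (4.29, 4.17 and 4.41) and accessory gland (6.04, 6.02 and 6.15) were highest on replicate 3. How these markers relate to the Cpr values was not tested.

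The effect of a male's own food was asked first, as the mean of the 5 differences between poor-raised and rich-raised males with the same ancestry. On poor food 9 Cpr genes were higher and 0 lower at an adjusted p under 0.05 (limma over all 15309 probe sets, Benjamini-Hochberg adjustment), against 0.856% of all probe sets higher and 0.98% lower. Of these 9, 7 were among the 11 above the floor. All 11 had a mean difference above 0, as did 38 of the 67 and 47.3% of all probe sets. The median difference was 0.63 over the 11 and 0.01 over the 67, against -0.01 over all probe sets. Of the 7 fat body markers 2 were higher and 1 lower in the same comparison, and Lsp2 differed by 0.85. Their part in the Cpr differences was not tested.

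Cpr97Ea had the smallest adjusted p of the family. In F0 it measured 1.70, 1.12 and 1.21 in R and 1.39, 2.24 and 1.38 in P, so the groups overlapped. In F1 it measured 0.57, 1.09 and 0.59 in R-R against 1.59, 2.71 and 1.88 in R-P. With poor-raised parents it measured 1.18, 1.67 and 1.53 in P-R against 1.96, 2.24 and 1.54 in P-P. The F1 groups with rich-raised parents did not overlap, and those with poor-raised parents did. In F2 it measured 0.95, 0.70 and 0.93 in R-R-R against 2.01, 2.59 and 0.77 in R-R-P. With poor-raised grandparents it measured 1.07, 0.86 and 1.82 in P-R-R against 2.17, 1.88 and 1.90 in P-R-P. The first F2 pair overlapped through 1 array of R-R-P, and the second did not overlap. On average over the 5 pairs Cpr97Ea rose by 0.75 ± 0.15 (SE, adjusted p = 0.00472), and with R-R replicates 1 and 3 left out by 0.68 ± 0.17 (adjusted p = 0.0411). It also passed without both ovary arrays (0.65 ± 0.15, adjusted p = 0.0152).

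Its neighbour Cpr97Eb rose by 0.79 ± 0.20 (adjusted p = 0.0338). In F0 it measured 4.35, 3.57 and 4.21 in R and 3.92, 4.44 and 4.21 in P. In the F2 males of poor-raised grandparents it measured 3.36, 3.36 and 4.05 in P-R-R and 4.43, 3.68 and 4.17 in P-R-P. Both pairs overlapped, and without replicates 1 and 3 of R-R the average difference was 0.47 ± 0.16 (adjusted p = 0.266).

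Cpr92F rose by 0.87 ± 0.20 (adjusted p = 0.0149) on average. Its F0 values were close, 6.23, 5.83 and 6.24 in R and 6.46, 6.13 and 6.23 in P. In F1 males of poor-raised parents it measured 5.82, 6.0 and 6.03 in P-R against 6.48, 6.38 and 6.54 in P-P, with no overlap. In F2 it measured 5.12, 5.20 and 5.73 in R-R-R against 6.07, 6.52 and 4.85 in R-R-P, where replicate 3 of R-R-P lay below all 3 rich-raised males' arrays. With poor-raised grandparents it measured 5.25, 5.18 and 5.62 in P-R-R against 6.12, 6.10 and 6.22 in P-R-P, again with no overlap. Without replicates 1 and 3 of R-R the average was 0.49 ± 0.12 and still passed (adjusted p = 0.0458). The pooled within-group SD of Cpr92F was 0.61 over all groups and 0.34 over the 9 groups other than R-R.

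Cpr49Ae rose by 0.90 ± 0.20 (adjusted p = 0.0143). It measured 5.78, 5.94 and 6.30 in P-R against 6.80, 6.64 and 6.52 in P-P, and 5.39, 5.91 and 5.73 in P-R-R against 6.58, 6.73 and 6.50 in P-R-P, without overlap in either pair. In F0 it measured 6.62, 5.65 and 5.93 in R and 6.51, 6.32 and 7.38 in P, which overlapped. Without replicates 1 and 3 of R-R the average difference was 0.57 ± 0.16 (adjusted p = 0.11).

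Cpr100A rose by 0.75 ± 0.17 (adjusted p = 0.0159), Cpr76Bd by 0.63 ± 0.16 (adjusted p = 0.0283) and Cpr49Ab by 0.32 ± 0.08 (adjusted p = 0.0238). In the pair P-P against P-R all 3 had non-overlapping groups, where 5.3% of all probe sets had the poor-raised arrays all above. Cpr100A measured 4.93, 4.68 and 4.47 against 3.77, 4.28 and 4.31. Cpr76Bd measured 5.39, 5.10 and 5.09 against 4.67, 4.42 and 4.98, and Cpr49Ab 1.47, 1.59 and 1.20 against 0.92, 0.76 and 1.17. In F0 all 3 overlapped: Cpr100A measured 4.87, 5.06 and 4.23 in P against 4.48, 4.23 and 4.79 in R. Cpr76Bd measured 4.93, 5.0 and 5.39 against 5.02, 4.94 and 5.42, and Cpr49Ab 1.41, 1.41 and 1.16 against 1.60, 1.25 and 1.41. In R-R-P against R-R-R all 3 overlapped as well. Cpr100A also overlapped between P-R-P and P-R-R, and Cpr76Bd and Cpr49Ab in R-P against R-R. Without replicates 1 and 3 of R-R their average differences were 0.52 ± 0.16, 0.44 ± 0.15 and 0.28 ± 0.08, with adjusted p of 0.14, 0.247 and 0.15.

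Both remaining genes that passed were below the level of 1. Cpr92A rose by 0.37 ± 0.09 (adjusted p = 0.0304), with group means from 0.65 in R-R to 1.41 in P-P. Cpr47Ea rose by 0.31 ± 0.08 (adjusted p = 0.0348), with group means from 0.32 in P-R-R to 0.92 in P. Neither passed without replicates 1 and 3 of R-R (0.27 ± 0.09, adjusted p = 0.219, and 0.24 ± 0.08, adjusted p = 0.256).

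Of the 11 genes above the floor, 4 did not pass. Cpr65Au differed by 0.30 ± 0.08 (adjusted p = 0.0509), Cpr62Bc by 0.38 ± 0.12 (adjusted p = 0.0977) and Cpr62Bb by 0.20 ± 0.10 (adjusted p = 0.454). Cpr51A differed by 0.00 ± 0.09 (adjusted p = 0.997). A p above the threshold does not show that these 4 had the same level on both foods.

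Leaving out replicates 1 and 3 of R-R brought the count from 9 to 2 of 67 genes, Cpr92F and Cpr97Ea, against 0.542% of all probe sets higher, and 0 were lower, against 0.712%. At an unadjusted p under 0.05 the count with all arrays was 15. No share of all probe sets was counted at that threshold, here or below, so such counts are description only. Leaving out both arrays with ovary transcripts gave 6 genes (0.758% of all probe sets), and leaving out all 4 arrays gave 0 by limma (0.542%), with 11 at an unadjusted p under 0.05. With the pair of R-P and R-R dropped from the average, a comparison over 4 pairs added after the data were seen, 0 passed (0.418%), and Cpr97Ea had 0.61 ± 0.17 (adjusted p = 0.0906). The direction was kept more widely than the calls: 11 genes had a difference above 0 in all 5 pairs, 6 of them above the floor, and without the 2 R-R arrays it was 7 and 6, against 4.49% of all probe sets in both cases. Those 6 were Cpr100A, Cpr49Ae, Cpr62Bc, Cpr92F, Cpr97Ea and Cpr97Eb.

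**Figure D3:**
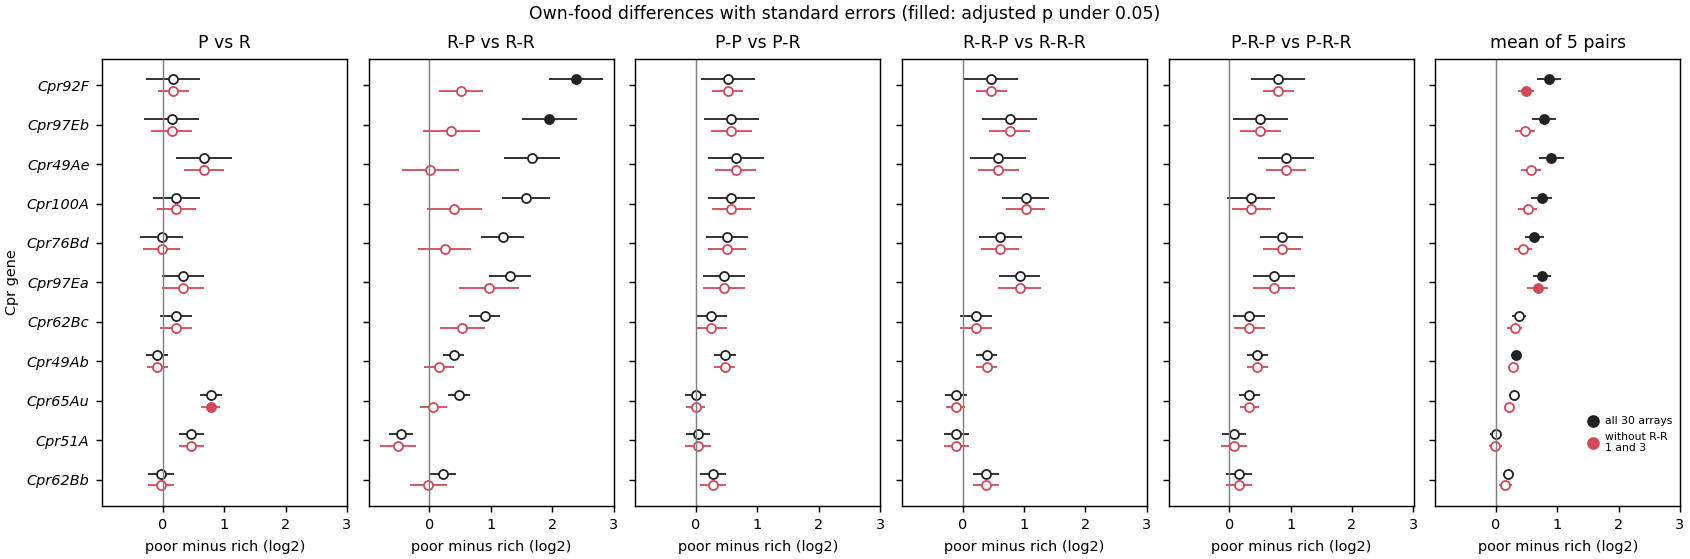
Difference between poor-raised and rich-raised males (log2, horizontal axis) for the 11 Cpr genes in each of the 5 pairs of groups and on average, with standard errors; black is all 30 arrays, red is without replicates 1 and 3 of R-R, and filled points have an adjusted p under 0.05. For Cpr92F in R-P against R-R the black point is at 2.38 and the red at 0.51, while in the other 4 pairs only the standard errors change.

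Among the single pairs, R-P against R-R had the largest median difference over the 11 genes above the floor, 1.19. Cpr92F measured 6.21, 6.45 and 6.30 in R-P against 2.96, 5.81 and 3.04 in R-R, a rise of 2.38 ± 0.44 (adjusted p = 0.00607). Cpr97Eb measured 3.85, 4.17 and 3.98 in R-P against 1.23, 3.64 and 1.28 in R-R, a rise of 1.95 ± 0.45 (adjusted p = 0.0351). These 2 of the 67 genes passed, against 0.131% of all probe sets higher, and 0 were lower, against 0.47%. In both genes all of R-P lay above all of R-R, but replicate 2 of R-R was nearer to R-P than to the other two R-R arrays.

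Without replicates 1 and 3 of R-R, a comparison of 3 arrays with 1 whose spread is taken from the other groups, 0 of the 67 passed (0.00653% of all probe sets higher, 0.0914% lower) and 1 was higher at an unadjusted p under 0.05. Cpr92F then differed by 0.51 ± 0.36, Cpr97Eb by 0.36 ± 0.47 and Cpr49Ae by 0.01 ± 0.47, the last down from 1.67 ± 0.45. On the array with ovary transcripts, replicate 2 of R-P, Cpr97Ea was 2.71 against 1.59 and 1.88 on the other R-P arrays and Cpr62Bc 2.22 against 1.20 and 1.52. Without both ovary arrays Cpr92F still passed, with 2.32 ± 0.50 (adjusted p = 0.0393). Whether ovary tissue contributed to those Cpr values was not tested.

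Cpr51A went the other way in this pair. It measured 1.01, 0.63 and 0.78 in R-P against 1.13, 1.32 and 1.36 in R-R, a difference of -0.46 ± 0.20 (adjusted p = 0.478), all of R-P below all of R-R. In F0 it measured 1.38, 1.44 and 1.40 in P against 1.28, 0.85 and 0.69 in R, a difference of 0.47 ± 0.20 (adjusted p = 0.708). The F test of whether the 5 own-food differences were unequal did not pass for it (adjusted p = 0.819).

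**Figure D4:**
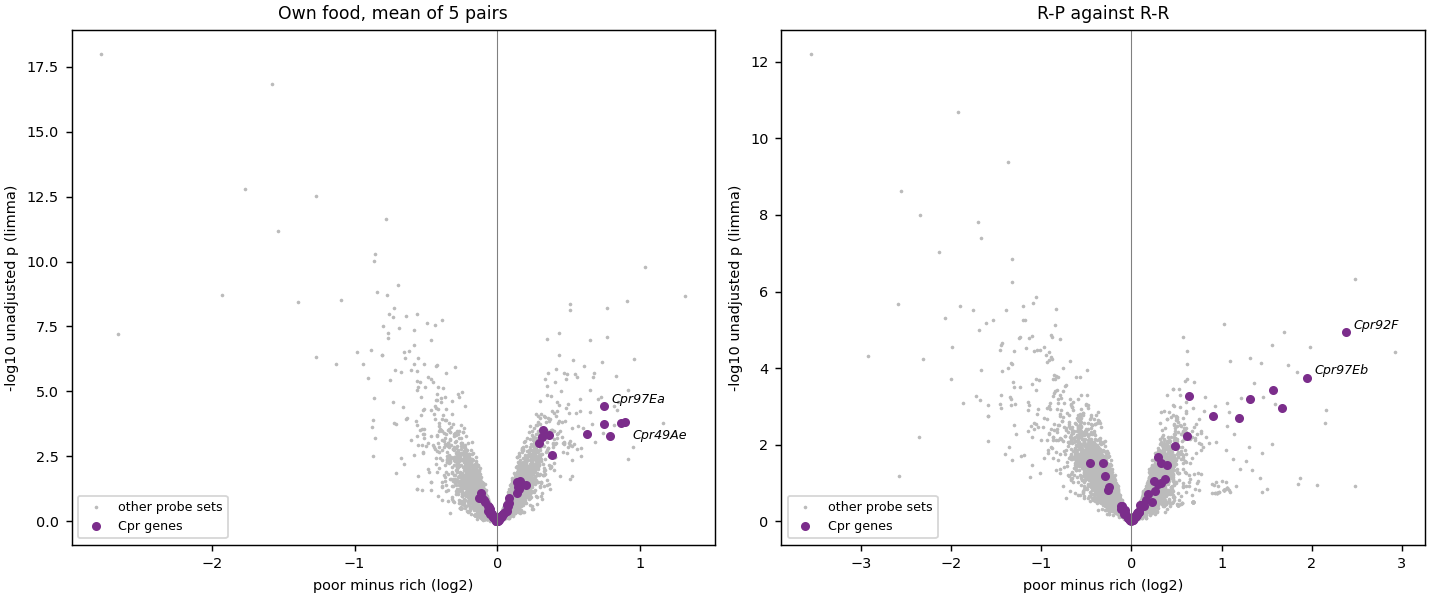
Each point is 1 probe set: the difference between poor-raised and rich-raised males (log2, horizontal axis) against the unadjusted limma p on a -log10 scale (vertical axis), for the mean of the 5 pairs (left) and for R-P against R-R (right), with the 67 Cpr genes in purple over all other probe sets in grey. Most Cpr genes lie at the foot of the plot near 0, and the widest Cpr differences in both panels, such as Cpr49Ae at 0.90 on the left and Cpr92F at 2.38 on the right, are toward higher values on poor food.

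In the other 4 pairs 0 of the 67 genes passed with all arrays. The percentages of all probe sets higher and lower were 0.0849% and 0.098% in F0, 0% and 0.0523% in P-P against P-R, 0.0131% and 0.0457% in R-R-P against R-R-R, and 0.0196% and 0.0523% between P-R-P and P-R-R. At an unadjusted p under 0.05 the counts of higher and lower Cpr genes were 3 and 1, 5 and 2, 3 and 2, and 6 and 0 in the same order. No share of all probe sets was counted at that threshold. The median difference of the 11 genes above the floor was 0.21 in F0, 0.47 in P-P against P-R, 0.46 in R-R-P against R-R-R and 0.46 between P-R-P and P-R-R. Between R-P and R-R the same median was 1.19, and 0.25 with replicates 1 and 3 of R-R left out. Counted without a model, the poor-raised arrays all lay above the rich-raised arrays in 4 Cpr genes in F0 (5% of all probe sets), 9 in R-P against R-R (4.85%), 13 in P-P against P-R (5.3%), 1 in R-R-P against R-R-R (7.88%) and 9 between P-R-P and P-R-R (4.94%). They all lay below in 6 (6.06%), 3 (7.62%), 1 (5.09%), 7 (5.43%) and 0 (5.55%). In P-P against P-R the 13 included 6 of the 11 genes above the floor, and between P-R-P and P-R-R the 9 included 5. In R-R-P against R-R-R 0 of the 11 separated the arrays. The F test of unequal own-food differences called 0 of the 67, against 0.0392% of all probe sets. At an unadjusted p under 0.05 there were 6, again with no share counted.

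Cpr65Au had its own pattern over the groups. In F0 it measured 5.07, 4.69 and 4.84 in R against 5.51, 5.84 and 5.59 in P, with no overlap and a difference of 0.78 ± 0.18 (adjusted p = 0.0828). With R-R replicates 1 and 3 left out, which changes only the estimate of spread here, the same difference passed (± 0.16, adjusted p = 0.0368, 0.0849% of all probe sets higher). It measured 4.42, 5.23 and 4.77 in R-R, so its lowest group means were 4.81 ± 0.41 (SD, n = 3) in R-R and 4.87 ± 0.19 in R. All other groups had means from 5.29 ± 0.13 in R-P to 5.65 ± 0.17 in P. In P-P against P-R its difference was -0.01 ± 0.18 and in R-R-P against R-R-R -0.11 ± 0.18. Unequal differences between the pairs did not pass the F test for it (adjusted p = 0.712).

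The parents' food was compared in F1 males raised on the same food. With rich-raised males, 0 of the 67 Cpr genes passed in P-R against R-R, where 0.0457% of all probe sets were higher and 0.00653% lower. In this comparison 10 Cpr genes were higher at an unadjusted p under 0.05 and 0 lower, with no share of all probe sets counted. The median difference of the 11 genes above the floor was 0.84 with all arrays and -0.01 without replicates 1 and 3 of R-R. Cpr92F had 5.82, 6.0 and 6.03 in P-R against the R-R values above, a difference of 2.01 ± 0.44 (adjusted p = 0.107). Cpr65Au differed by 0.84 ± 0.18 (adjusted p = 0.101), Cpr97Eb by 1.76 ± 0.45 (adjusted p = 0.288) and Cpr49Ae by 1.45 ± 0.45 (adjusted p = 0.56). This comparison shares the R-R arrays with R-P against R-R. Without replicates 1 and 3 of R-R the differences were 0.14 ± 0.36 for Cpr92F, 0.41 ± 0.22 for Cpr65Au, 0.17 ± 0.47 for Cpr97Eb and -0.21 ± 0.47 for Cpr49Ae.

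With poor-raised males, P-P against R-P, 0 of the 67 passed (0.0131% of all probe sets higher, 0% lower), with 1 higher and 2 lower at an unadjusted p under 0.05. The differences of the 11 genes above the floor lay between -0.30 for Cpr62Bc and 0.42 for Cpr49Ae, with standard errors of 0.26 and 0.45. The interaction of own and parental food called 0 of the 67 (0.00653% of all probe sets higher, 0% lower). With no share of all probe sets counted, this interaction had 1 gene higher and 7 lower at an unadjusted p under 0.05. For Cpr92F it was -1.87 ± 0.62 (adjusted p = 0.859), and 0.01 ± 0.44 without replicates 1 and 3 of R-R.

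The grandparents' food was compared in F2 males. In rich-raised males, P-R-R against R-R-R, and in poor-raised males, P-R-P against R-R-P, 0 of the 67 Cpr genes passed, as did 0% of all probe sets in either direction. At an unadjusted p under 0.05 the counts of higher and lower Cpr genes were 0 and 2 in rich-raised and 3 and 1 in poor-raised males. Here too no share of all probe sets was counted at that threshold. In rich-raised males Cpr100A measured 3.74, 3.81 and 4.26 in P-R-R against 3.22, 3.41 and 3.36 in R-R-R, a difference of 0.61 ± 0.38 (adjusted p = 0.698) without overlap. In poor-raised males Cpr49Ae had the widest difference of the 11 genes, 0.61 ± 0.45 (adjusted p = 0.98), between 6.58, 6.73 and 6.50 in P-R-P and 6.29, 6.79 and 4.91 in R-R-P, and the groups overlapped. The interaction of own and grandparental food called 0 of the 67 (0% of all probe sets). At an unadjusted p under 0.05, again with no share counted, 3 were higher and 0 lower.

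Males with only rich food in their history were compared over the generations R, R-R and R-R-R by an F test. It called 0 of the 67 genes, against 0.00653% of all probe sets. At an unadjusted p under 0.05 there were 12, a description with no share of all probe sets counted. Cpr92F had means of 6.10 ± 0.23, 3.94 ± 1.62 and 5.35 ± 0.33 (SD, n = 3; adjusted p = 0.261), and Cpr65Au 4.87 ± 0.19, 4.81 ± 0.41 and 5.57 ± 0.33 (adjusted p = 0.313). The SD of Cpr92F in R-R, where 2 arrays were at about 3 and 1 at 5.81, was larger than that of any other group.

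The groups were also ranked by their means, a description for which no share of all probe sets was counted. With all arrays R-R was the group with the lowest mean in 10 of the 11 genes above the floor, and R-P in Cpr51A. Without replicates 1 and 3 of R-R, replicate 2 alone stood for R-R against means of 3 arrays. The lowest group was then R-R-R in 6 of the 11 genes: Cpr100A, Cpr49Ae, Cpr62Bb, Cpr62Bc, Cpr97Ea and Cpr97Eb. For Cpr97Eb the R-R-R mean was 3.29 ± 0.15, near that of P-R-R at 3.59 ± 0.40, and their arrays overlapped. The highest mean was in a group raised on poor food in all 11 genes, P for Cpr49Ae, Cpr65Au, Cpr100A and Cpr51A, P-P for Cpr92F, Cpr97Eb and Cpr76Bd, R-P for Cpr97Ea and Cpr62Bc, R-R-P for Cpr62Bb and P-R-P for Cpr49Ab. In Cpr92F the 2 highest means were 6.47 ± 0.08 in P-P and 6.32 ± 0.12 in R-P, with overlapping arrays as well.

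Other cuticle genes were read from lists made for this purpose with earlier results of these data known. Their counts therefore give no independent support to those of the Cpr genes. Of 18 measured genes with a Rebers-Riddiford domain but other names, 0 reached a mean of 1. On poor food 1 was higher and 0 lower by the mean of the 5 pairs, against 0.856% and 0.98% of all probe sets. It was Acp65Aa, a gene of adult cuticle, by 0.55 ± 0.09 (adjusted p = 0.000466). It also passed without replicates 1 and 3 of R-R (0.51 ± 0.10, adjusted p = 0.00568).

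Of 60 other cuticle and chitin genes, 12 reached a mean of 1, and 10 were higher and 0 lower, against 0.856% and 0.98% of all probe sets. Without replicates 1 and 3 of R-R the counts were 2 and 1, against 0.542% and 0.712%. The 10 included kkv, the chitin synthase of the epidermis, by 0.42 ± 0.07 (adjusted p = 0.000331), and Gasp, which encodes a chitin-binding protein, by 0.92 ± 0.17 (adjusted p = 0.00143). The mean of kkv over the 30 arrays was 0.73, under the level of 1. The 10 also included verm, a chitin deacetylase gene, by 0.67 ± 0.15 (adjusted p = 0.0157), and Acp1, another adult cuticle gene, by 0.84 ± 0.17 (adjusted p = 0.00625). With R-R replicates 1 and 3 left out, Gasp (0.68 ± 0.15, adjusted p = 0.0129) and kkv (0.41 ± 0.08, adjusted p = 0.00248) also passed, while Acp1 (0.65 ± 0.17, adjusted p = 0.073) and verm (0.58 ± 0.17, adjusted p = 0.116) did not. The 1 lower gene was obst-F, of the same chitin-binding family as Gasp, with a difference of -0.61 ± 0.11. Its mean over the 30 arrays was 0.65, also under the level of 1.

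Of 20 measured tanning genes 2 were higher and 0 lower, against 0.856% and 0.98% of all probe sets. These 2 were ple, which encodes tyrosine hydroxylase, by 0.73 ± 0.14 (adjusted p = 0.00253), and t, which encodes the hydrolase tan, by 0.47 ± 0.08 (adjusted p = 0.000423). Both also passed without the 2 R-R arrays. Of 20 genes of ecdysone signalling and cuticle regulation, 0 passed in either direction.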

How the data were processed

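The deposited table holds normalized values, treated here as log2 although the base is not stated. Per the submitters' processing notes the authors used GCRMA, which adjusts for background by probe sequence, brings arrays to a common distribution and combines the probes of a set; its version is not given. Samples were grouped by their group labels, and precision is limited by having 3 arrays in each.

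With limma 3.58.1 (lmFit and eBayes, R 4.3.3), 10 group means were estimated from the 30 arrays without a filter, and p-values were adjusted by Benjamini-Hochberg over 15309 probe sets for each of 12 contrasts (poor minus rich) and 2 F tests. Genes were called at an adjusted p under 0.05. The fit was tested on simulated data with independent normal noise and no outlying arrays. That setting differs from these data, so it does not bear on calls that depend on single arrays. The text names the Cpr genes that passed in any comparison with all arrays or without replicates 1 and 3 of R-R, those with a mean of at least 1, and at most 6 genes of each other list that passed for own food. Members, lists, tests and arrays to leave out were chosen with earlier results of these data known. The lists are other Rebers-Riddiford genes, other cuticle and chitin genes, tanning, ecdysone and cuticle regulators, and markers of ovary, testis, accessory gland, fat body and muscle. For own food on average, of the marker genes 0 of 15 for ovary, 0 of 17 for testis, 1 of 12 for accessory gland, 2 of 7 for fat body and 1 of 13 for muscle were higher, and 1 for fat body was lower. The shares of all probe sets were 0.856% higher and 0.98% lower. No coordinates are given, since the files name no genome build.

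Alternatives were quantile normalization, centring on medians, filters on the mean, array weights, a trended and robust variance, the replicate number as a block, the groups of a comparison alone, and leaving out arrays. Samples were not paired by replicate number: correlations of same-numbered deviations were -0.10 to 0.12, and in 0 of 9 pairs of groups were all over 0.1. Such correlations cannot exclude that equal numbers mark a shared batch or culture, which the labels do not state.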

Additional observations from a re-analysis of the deposited data

How the results depend on the processing

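The count of 9 Cpr genes higher on poor food on average became 2 without replicates 1 and 3 of R-R, 0 without those 2 and both ovary arrays, and 0 with the pair of R-R and R-P dropped from the average. It was 6 to 10 under the other alternatives that keep R-R whole, and 5 to 10 with 1 array left out, the low value without replicate 1 or 3 of R-R, replicate 3 of P or replicate 1 of P-P. The 2 genes of R-P against R-R became 0 without replicates 1 and 3 of R-R, without all 4 arrays, or with only the 2 groups in the fit, 1 without the ovary arrays or with a trended and robust variance, and 4 with arrays centred on medians or with a mean of at least 1 or 2. With 1 array left out the count was 0 to 6: 0 without replicate 1 or 3 of R-R, 6 without replicate 2 of R-R, 1 without any single R-P array, and 4 without replicate 2 or 3 of R-R-P. In F0 the 1 gene Cpr65Au passed with quantile normalization, with a mean of at least 2, and without R-R 1 and 3 or all 4 arrays, and the range with 1 array left out was 0 to 1, with 1 without replicate 1 or 2 of R-R or replicate 1 of R-R-R. P-R against R-R gave 2 with array weights and 0 to 5 with 1 array left out, 5 without replicate 2 of R-R and 1 without replicate 1 of R-R-R. The F test over R, R-R and R-R-R gave 0 to 6, the F1 interaction 0 to 1 and the F test of own-food differences 0 to 1, each with its highest value without replicate 2 of R-R. The other 7 comparisons gave 0 throughout.

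With the replicate number as a block the counts were 9 for own food on average and 3 for R-P against R-R, and it moved no count of calls by over 1.5 times. The main fit does not pair samples by number.

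Signs turned in comparisons that the gene had not passed with all arrays. Of the genes below, Cpr47Ea and Cpr49Ae had passed for own food on average, but their signs turned in R-P against R-R. Cpr51A on average was -0.008 without R-R 1 and 3, and -0.032 to 0.057 with 1 array left out. In R-P against R-R without R-R 1 and 3, Cpr47Ea was -0.0467 and Cpr62Bb -0.02, and without all 4 arrays Cpr47Ea was -0.12 and Cpr49Ae -0.15. The fit on only the groups compared does not apply to own food on average or its F test, which use all groups. Values near the floor, as in 56 of the 67 genes, limit what can be seen there.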

Other observations

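Among the 101 probe sets with 1 symbol for which replicates 1 and 3 of R-R were the lowest 2 of the 30 arrays, the 12 with the widest gap to the next array, listed after their values were seen, held 4 Cpr genes: Cpr92F, Cpr97Eb, Cpr49Ae and Cpr100A. Cpr92F had the widest gap of all, 1.81. The others were ple, Vajk2, Gasp, Lsp2, Obp56e, Fbp2, CG6788 and CG8736. The tyrosine hydroxylase gene ple measured 2.83 and 2.74 on these arrays and at least 4.16 on the other 28. Vajk2 measured 0.83 and 1.11 against at least 2.44, and Gasp 2.59 and 2.64 against at least 3.32. This is a description of these arrays, with no test.

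Replicate 2 of R-R, which was not low in the Cpr genes, held the highest value of obst-F, 2.07 against 0.01 to 1.47 on the other arrays. The lower obst-F value on poor food without replicates 1 and 3 of R-R uses that array alone for R-R.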
